A study of Homo sapiens with 12 samples.

Results

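The antigen negative cells of 2 pancreatic adenocarcinoma lines were compared. SW1990 and CFPAC-1 are established human lines of ductal adenocarcinoma of the pancreas, and each had been sorted with GCTM-5, a monoclonal antibody to a surface and secreted glycoprotein complex of foregut duct cells and of pancreatic carcinoma. The members are the 3 SW1990 negative and the 3 CFPAC-1 negative samples, 6 of the 12 samples of the series, chosen by their labels alone. The other 6 samples are the antigen positive cells of the same lines, 3 of each. All 12 samples were monolayer cultures of untreated cells that were dissociated, stained and sorted with gates that left out weakly stained cells, and no transgene or drug was used. Each line stands for a single tumour, so a difference between the lines cannot be told apart from a difference between the tumours, cultures or sorts they came from. The study's methods speak of triplicate sorts, the labels do not say that these came from separate cultures, and p-values here measure only the spread between these samples, which may be technical. Of 23346 genes in the table, 16264 had a mean of at least 0.1 RPKM over the 6 samples and were tested. RPKM, reads per kilobase of transcript scaled to library size, is a level per length, so levels of different genes can be set side by side.

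Carcinoma lines of the pancreas are commonly placed on a scale from classical, with genes of gut and duct epithelium, to basal-like or quasi-mesenchymal, with less cell adhesion and more matrix and motility genes. Duct cells are polarised epithelium held together by E-cadherin and tight junctions, governed by factors such as *SOX9* and *PDX1*. Carcinoma cells also differ in how far genes of inflammation and of the interferon response are on in culture, without any immune cell present.

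Library totals recovered from the values ran from 17687300 to 23277100 reads in the SW1990 negative and from 19468600 to 21866300 in the CFPAC-1 negative samples, so depth was alike in the lines. Each sample held at least 1 read for 16845 to 17224 genes. Over the tested genes, the Pearson correlation of log2(RPKM + 0.1) was 0.9797 to 0.985 within a line and 0.776 to 0.7997 between lines, and the first principal component, which separated the lines, held 89.1% of the variance. No sample stood apart from the other samples of its line. Below, the values of a gene are given for replicates 1, 2 and 3, first of SW1990 negative and then of CFPAC-1 negative cells, and fold changes are SW1990 over CFPAC-1 unless said otherwise.

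The known gene losses of the lines were checked first, and both went with the labels. SW1990 is known for loss of *CDKN2A*, the gene of the cell cycle inhibitor p16, and its 3 samples held no read of it, against 55.8, 47.8 and 47.05 RPKM in CFPAC-1. The neighbouring inhibitor gene *CDKN2B* was likewise at 0 in SW1990 and at 16.8, 14.5 and 14.5 RPKM in CFPAC-1. *MTAP*, the adjacent gene of methionine salvage, was read in both lines, at 16.1, 13.99 and 13.4 RPKM in SW1990 and 20.8, 18.9 and 19.5 in CFPAC-1. *CDKN2A* lies on chromosome 9 at chr9:21967751-21995300 and *MTAP* at chr9:21802635-21937650 (GRCh37), so levels ended between *MTAP* and *CDKN2A*, while *DMRTA1* beyond *CDKN2B* had a mean of 2.65 RPKM in SW1990. The antisense RNA *CDKN2B-AS1*, which overlaps both inhibitor genes, still had 0.679 RPKM in SW1990 and 1.05 in CFPAC-1, and since use of the strand in counting is not stated, its reads cannot be assigned with certainty. CFPAC-1 is known for loss of *SMAD4*, the common mediator of TGF-beta signals. It held no read of *SMAD4*, against 5.86, 6.01 and 6.44 RPKM in SW1990. The adjacent gene *ELAC1*, a tRNA-processing enzyme, was at 0 in CFPAC-1 as well and at 1.73 RPKM in SW1990, whereas *ME2* and *MEX3C* on either side were read in both lines. *DMRTA1*, *ELAC1*, *ME2*, *MEX3C* and *CDKN2B-AS1* were looked up as neighbours after the values of *CDKN2A* and *SMAD4* were seen.

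Markers of other cells of the pancreas were low or partial. Of 12 acinar markers 2 passed the filter, and of 12 endocrine markers 3 did, with insulin, glucagon and somatostatin at 0 or 1 read in every sample. Among leukocyte markers, *PTPRC* (CD45) held at most 2 reads in a sample, while *CD68* and *CD14* were read in both lines and were higher in CFPAC-1. All 4 leukocyte markers that passed the filter were lower in SW1990 (100%, against 14.9% of all tested genes). Summed over the 10 leukocyte markers, the level ran between 36.1 and 50.1 RPKM among SW1990 samples and between 179.9 and 210.3 among those of CFPAC-1, most of it *CD68* and the lysozyme gene *LYZ*. Of 11 fibroblast markers 4 passed the filter. Of these, 3 were higher in SW1990 (75%, against 21.9% of all tested genes), among them *LUM* and *PDGFRB*. The markers *COL1A2*, *COL3A1* and *DCN* held at most 5 reads in any sample. Summed over the 11 fibroblast markers the level was 14.2 to 24.9 RPKM in SW1990 samples and 2.99 to 3.17 in CFPAC-1 samples. The endothelial cadherin *CDH5* was at 14.2, 14.98 and 17.7 RPKM in SW1990 and had no read in CFPAC-1. *KDR*, another endothelial marker, went the other way, at 0 in SW1990 and 1.01, 0.763 and 0.862 RPKM in CFPAC-1 (log2 fold change -3.28, and -0.91 with a pseudocount of 1). The 8 endothelial markers summed to 17.3 to 20.9 RPKM across SW1990 samples and 11.7 to 13.4 across CFPAC-1 samples. Any part of other cells in the differences below was not tested. Duct epithelium was marked in both lines by *KRT7*, *KRT8*, *KRT18* and *KRT19*, each above 170 RPKM in every sample.

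A large part of the transcriptome differed between the negative cells of the lines. A gene was called when it differed over 2-fold with a Benjamini-Hochberg adjusted p under 0.01 in limma, over all 16264 tested genes. By this rule 3568 genes (21.9% of those tested) were higher in SW1990 and 2428 (14.9%) were lower, 36.9% in all. All 5996 called genes had the 3 samples of one line above the 3 of the other, which was also true of 75.4% of all tested genes. An exact permutation test of 3 samples against 3 cannot give a p below 0.1, and limma's calls rest on a spread shared across genes. The median log2 fold change of all genes was 0.20, a shift towards SW1990, and 59.5% of calls were higher in SW1990. With each sample centred on its median this share was 49.7%, with 2889 genes higher and 2919 lower. The balance of higher and lower calls thus depended on scaling, and differences below are to be read against that shift.

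Many of the differences were between presence and near absence. Over 16-fold differences were found for 283 genes higher and 304 lower in SW1990. With a limit of 3 reads in each sample of a line, 189 genes with at least 1 RPKM in CFPAC-1 were at or under it in SW1990, 89 of them with no read at all. The reverse held for 226 genes, 89 of them with no read in CFPAC-1.

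The 10 genes lowest in SW1990 were led by *TM4SF4*, a tetraspanin-like membrane protein of gut and islet cells. It had no read in SW1990 and 669, 913 and 879.6 RPKM in CFPAC-1, at least 8898-fold higher when SW1990 is set at 3 reads per library. *TFPI2*, an inhibitor of serine proteases, was at 0 against 144, 189 and 194 RPKM, at least 1387-fold. The lactate dehydrogenase B gene *LDHB* was at 0 against 123, 98.9 and 98.4 RPKM, at least 1152-fold. *PEBP1*, an inhibitor of Raf kinase, was at 0 against 70.1, 61.7 and 57.8 RPKM, at least 636-fold. These 4 genes had no read in any of the 3 SW1990 samples at this depth. *LDHB* and *PEBP1* have annotated pseudogene copies elsewhere in the genome, and how reads that match several places were counted is not stated. The matrix protease *MMP7* was at 0.478, 1.19 and 1.01 RPKM in SW1990 and at 961, 988 and 1081 in CFPAC-1 (log2 fold change -10.07, SE 0.27, limma adjusted p = 1.2e-07). The GABA receptor subunit *GABRP* was at 0.147, 0.325 and 0.632 RPKM in SW1990 and at 538, 935 and 947 in CFPAC-1 (log2 fold change -10.84, SE 0.39, limma adjusted p = 3.6e-07). No SW1990 sample came near a CFPAC-1 sample for either gene. The water channel *AQP5*, the keratin *KRT23*, the urea transporter *SLC14A1* and *GCNT3*, a branching enzyme of mucin glycans, completed the 10, with log2 fold changes of -9.30, -9.24, -9.19 and -9.10.

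The 10 genes highest in SW1990 were led by a matrix protein. *TIMP3*, an inhibitor of matrix metalloproteinases, was at 254, 288 and 311 RPKM in SW1990 and at 0.0187, 0.05002 and 0.0183 in CFPAC-1 (log2 fold change 11.11, SE 0.14, limma adjusted p = 5.8e-09). The granule protein *SCG2* was at 440.3, 400.5 and 363 RPKM against 0.3195, 0.213 and 0.195 (log2 fold change 10.21, SE 0.15, limma adjusted p = 8.7e-09). Gelatinase A, *MMP2*, was at 112, 159 and 145 RPKM against 0.0267, 0.0476 and 0 (log2 fold change 10.12, SE 0.19, limma adjusted p = 3.0e-08). For all of these genes, CFPAC-1 held at most 16 reads in a sample. The cadherin of mesenchymal cells *CDH11* was at 105, 110 and 101 RPKM in SW1990 and had no read in CFPAC-1, at least 2608-fold higher. *FOXF1*, a transcription factor of foregut mesenchyme, was at 30.8, 32.8 and 39.9 RPKM against none, at least 599.6-fold. The uncharacterised locus *LOC100505817* was at 139, 123 and 132 RPKM against none, at least 1047-fold. The calcium-binding protein *CALB1*, the cytokine *IL1B*, the matrix protein *SPON1* and the surface protein *SUSD2* were the others, with log2 fold changes of 10.07, 9.23, 9.12 and 8.94.

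**Figure D1:**
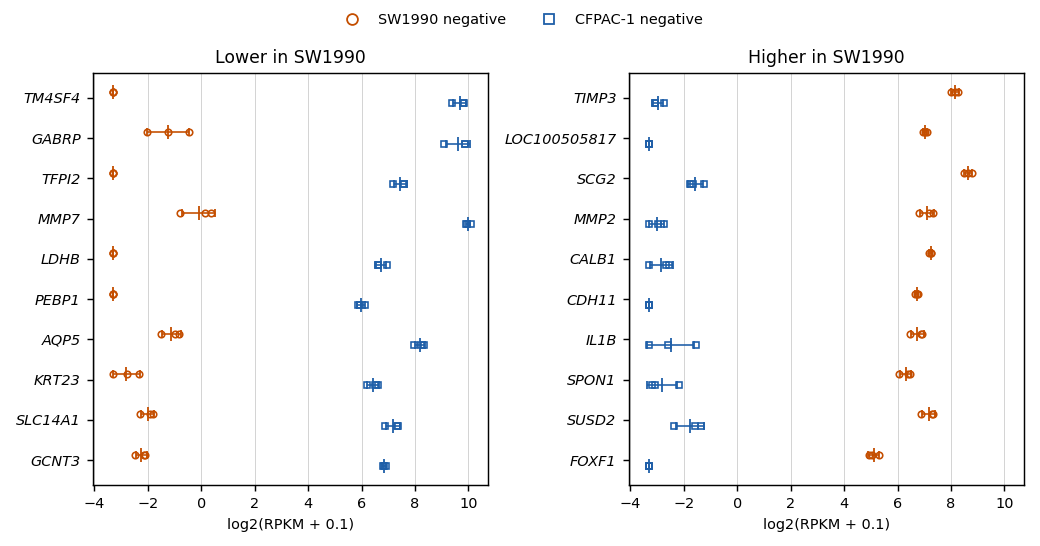
Levels of the 10 genes lowest and the 10 highest in SW1990 negative relative to CFPAC-1 negative cells, as log2(RPKM + 0.1), where 0 RPKM is drawn at the left end. Open symbols are the 3 samples of each line, and the upright bar with whiskers is their mean ± SD. For every gene the samples of the lines lie far apart.

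The most abundant transcripts were shared in part. *TMSB4X*, *ACTB* and *B2M* were among the 5 highest in both lines and none of the 3 was called. *FTL*, the ferritin light chain, was highest in SW1990, at 3290, 4789.6 and 4527 RPKM against 1258, 932 and 915 in CFPAC-1 (log2 fold change 2.02, SE 0.20, limma adjusted p = 5.4e-05). *TUBB*, a beta-tubulin, was at 2907, 2876 and 2397 RPKM against 891, 1019 and 916 (log2 fold change 1.53, SE 0.14, limma adjusted p = 2.8e-05). *KRT19* was among the 5 highest of CFPAC-1, at 2654, 3048 and 2862 RPKM, and at 349, 354 and 353 in SW1990 (log2 fold change -3.02, SE 0.11, limma adjusted p = 3.3e-07). *ANXA2P2*, a processed copy of *ANXA2* whose reads may belong to its parent gene, completed the CFPAC-1 list. Of 23 housekeeping genes tested, 3 were higher and 2 lower in SW1990, with a median log2 fold change of -0.02. Their share of calls was 21.7%, against 36.9% of all tested genes.

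Epithelial junction genes were lower in SW1990 negative cells almost as a block. Of 36 genes of tight junctions, desmosomes, epithelial proteases, keratins and their regulators, all were tested, 30 were lower, none was higher and 6 were not called, with a median log2 fold change of -2.94 against 0.20 for all genes. The share called lower was 83.3%, against the background of 14.9%. This and the other lists were chosen with earlier results of these data known. Their shares beside the background are therefore a description and not a test. In bulk samples, fewer cells of a type and less RNA per cell cannot be told apart. *CDH1*, E-cadherin, was at 10.1, 11.2 and 16.6 RPKM in SW1990 and 80.8, 75.3 and 81.02 in CFPAC-1 (log2 fold change -2.67, SE 0.17, limma adjusted p = 5.2e-06). The adhesion molecule *EPCAM* was at 19.7, 18 and 27.2 RPKM against 223, 238 and 250 (log2 fold change -3.47, SE 0.15, limma adjusted p = 7.5e-07). The tight junction claudin *CLDN4* was at 39.2, 42.4 and 66.1 RPKM against 1322, 1529 and 1356 (log2 fold change -4.87, SE 0.19, limma adjusted p = 5.2e-07), and its relative *CLDN3* was the member with the widest difference (log2 fold change -6.78). In each of these genes all SW1990 samples lay below all CFPAC-1 samples, and SW1990 replicate 3 was the highest of its line in *CDH1*, *EPCAM* and *CLDN4*. The membrane protease *PRSS8* was at 4.82, 4.58 and 10.1 RPKM against 244, 247 and 238. *RAB25*, a trafficking protein of epithelial cells, was at 3.902, 3.21 and 7.14 RPKM against 137, 143 and 138 (log2 fold change -4.93, SE 0.25, limma adjusted p = 1.8e-06). The epithelial splicing regulator *ESRP1* was at 5.18, 3.88 and 8.04 RPKM against 38.4, 41.7 and 41 (log2 fold change -2.87, SE 0.23, limma adjusted p = 1.6e-05), while its relative *ESRP2* was at 7.53, 6.37 and 7.79 RPKM against 8.05, 8.39 and 9.43 and was not called. Among the grainyhead factors, which drive epithelial genes, *GRHL2* was lower (log2 fold change -1.55) and *GRHL1* was not called (-0.57, SE 0.28). The desmosome gene *DSP* had means of 26.8 and 28.9 RPKM with overlapping samples, and *KRT7* was at 314, 305 and 238 RPKM against 189, 172 and 172, the only member above 0 on the log2 scale. The difference was thus uneven within the list. The simple keratins *KRT7*, *KRT8* and *KRT18* differed by 0.68, -1.25 and -0.87 on the log2 scale. These keratins were thus read in every sample of both lines.

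Promoter sequences of all lists were searched, and those of the epithelial, cytokine and interferon lists are described. RefSeq promoters (GRCh38.p14), as the 250 bases before a start site, were available for 10611 tested genes with 15441 promoters, and 6 short motifs were searched on both strands. The E-box CACCTG, on either strand, which repressors such as ZEB1 and SNAI2 are known to bind, was in at least 1 promoter of 11 of the 18 epithelial genes with an entry (61.1%), against 21.3% of all genes with an entry and 16.3% of all promoters. Genes called lower in SW1990 held it in 27.9% and genes called higher in 19.7%. It was also in 41.7% of basal-like, 40.9% of Lewis synthesis and 40.7% of growth factor genes. Those lists had calls in both directions, more of them lower in SW1990. Among classical and S phase genes, lists with a common direction, it was in 22.2% and 8.33%. The E-box was thus found in other lists as well, and any part of it in the differences was not tested. The promoter of *RAB25* is shown, on the plus strand at chr1:156060910-156061159, since *RAB25* had the widest difference among the epithelial genes with this motif, and the capitals mark the match.
RAB25: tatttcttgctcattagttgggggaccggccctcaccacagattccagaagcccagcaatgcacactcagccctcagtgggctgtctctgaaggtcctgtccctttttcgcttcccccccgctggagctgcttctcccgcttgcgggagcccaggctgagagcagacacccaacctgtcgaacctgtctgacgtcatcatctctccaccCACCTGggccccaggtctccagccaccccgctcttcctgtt
A match of 6 letters says nothing of binding in these cells. The grainyhead motif AACCGGTT was in none of those 18 promoter sets and in 0.188% of all genes.

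**Figure D2:**
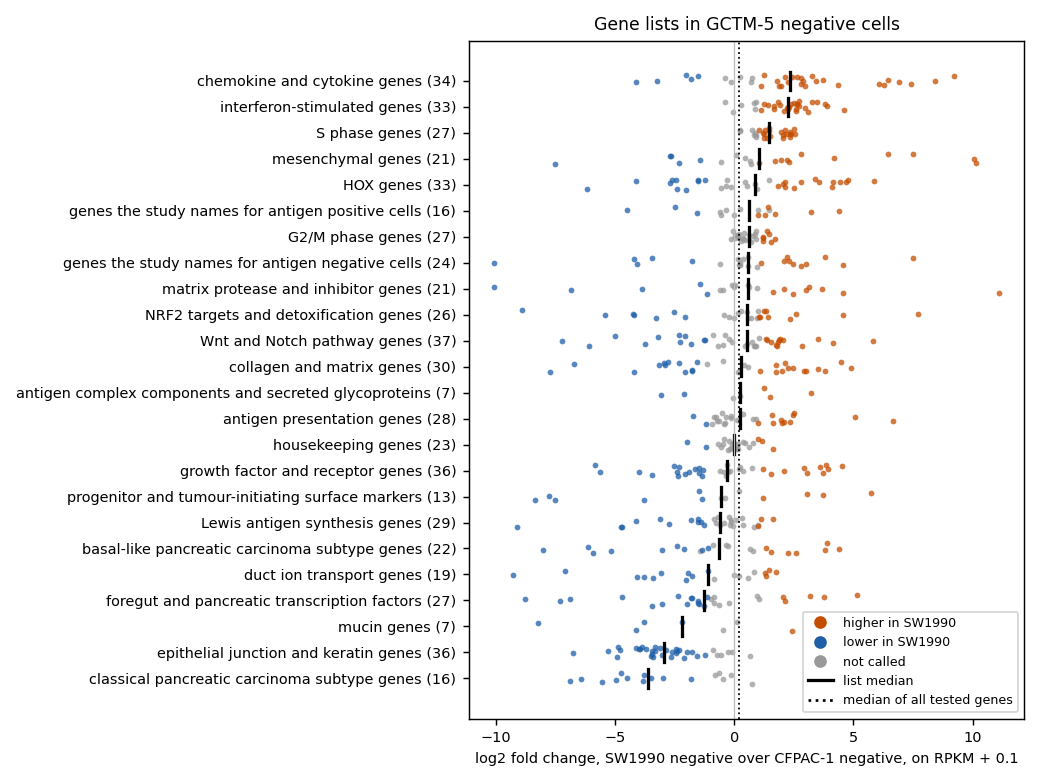
Log2 fold change of the tested members of 24 gene lists, SW1990 negative over CFPAC-1 negative, with the number of tested members in brackets. Each point is a gene, coloured by its call, thick bars are list medians, and the dotted line is the median of all tested genes; points of the epithelial and classical lists lie mostly to its left, and those of the cytokine, interferon and S phase lists to its right.

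Mesenchymal genes went both ways, more of them higher in SW1990. Of 25 listed, 21 were tested, 11 were higher and 5 lower in SW1990 (52.4% higher and 23.8% lower against backgrounds of 21.9% and 14.9%), with a median log2 fold change of 1.02. The repressor of epithelial genes *ZEB1* was at 31.96, 32.02 and 31.9 RPKM in SW1990 and 7.65, 6.78 and 5.94 in CFPAC-1 (log2 fold change 2.23, SE 0.10, limma adjusted p = 1.0e-06). *VIM*, vimentin, was abundant in both, at 1219, 1286 and 1120.2 RPKM against 717, 552 and 526 (log2 fold change 1.02, SE 0.14, limma adjusted p = 3.4e-04). That difference lay just past the 2-fold limit, in samples that did not overlap, and lay under it, at 0.94 to 0.98, when SW1990 replicate 2 or CFPAC-1 replicate 2 or 3 was left out, and at 0.84 with median centring. *S100A4* was at 496, 626 and 549.7 RPKM against 5.28, 5.43 and 8.18 (log2 fold change 6.47, SE 0.17, limma adjusted p = 1.2e-07). The collagen-binding protein *SPARC* was at 55.04, 79.1 and 85.1 RPKM against 0.544, 0.306 and 0.1397 (log2 fold change 7.50, SE 0.34, limma adjusted p = 1.0e-06). Samples of the lines did not overlap for either gene. Fibronectin, *FN1*, had a log2 fold change of 2.82 (SE 0.30). Going the other way, N-cadherin, *CDH2*, was at 5.604, 5.87 and 5.17 RPKM against 16.2, 13.9 and 14.9 (log2 fold change -1.42, SE 0.10, limma adjusted p = 7.7e-06), and the mesenchymal factor *FOXC2* was at 0, 0 and 0.0336 RPKM against 22.3, 19.2 and 19.01. *TNC*, *TCF4* and *TWIST2* were also lower in SW1990, the last pair under 2-fold with a pseudocount of 1 (-0.74 and -0.65). Negative cells of SW1990 thus held the higher *ZEB1* and the lower *CDH2*.

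Matrix genes split between the lines. Of 30 tested collagen and matrix genes, 13 were higher and 12 lower in SW1990, 83.3% called against a background of 36.9%, with a median of 0.29. Collagen VI chains were on the SW1990 side, *COL6A1* at 171, 208 and 225 RPKM against 28.05, 13.8 and 13.96 and *COL6A3* at 7.17, 6.23 and 5.84 against 0.158, 0.0941 and 0.103 (log2 fold changes 3.50 and 4.90). Fibrillin *FBN1* and lumican *LUM* were also higher there (3.80 and 4.46). For these 4 genes every CFPAC-1 sample lay below every SW1990 sample. The basement membrane collagen *COL4A2* was on the CFPAC-1 side, at 0.0622, 0 and 0.00903 RPKM against 35, 21.3 and 23.2 (log2 fold change -7.75). Osteopontin, *SPP1*, was at 27.3, 46.4 and 60.1 RPKM against 155, 149 and 135 (log2 fold change -1.78, SE 0.25, limma adjusted p = 3.7e-04), and samples overlapped for *VCAN*. The plasminogen activators *PLAU* and *PLAT* were lower in SW1990, *PLAU* at 72.2, 74.2 and 71 RPKM against 1253, 980.3 and 953 (log2 fold change -3.86) and *PLAT* at 4.36, 4.93 and 5.11 against 521, 575 and 608 (-6.86). Among the protease inhibitors of the TIMP family, *TIMP3* and *TIMP4* were higher and *TIMP1* lower in SW1990 (log2 fold changes 11.11, 3.68 and -1.44). Protease and inhibitor genes as a list had 8 higher and 5 lower of 21 tested (38.1% higher and 23.8% lower against backgrounds of 21.9% and 14.9%).

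Classical subtype genes were lower in SW1990. Of 24 listed, 16 were tested, 11 were lower (68.8% against 14.9%), none higher, and the median log2 fold change was -3.63, or -3.23 with genes at 0 set to their bound. The secretory cell gene *AGR2* was at 3.86, 4.11 and 6.27 RPKM against 125, 158 and 158 (log2 fold change -4.95, SE 0.19, limma adjusted p = 4.7e-07). The adhesion molecule *CEACAM6* was at 11.4, 14.4 and 17.99 RPKM against 87.9, 126 and 132 (log2 fold change -2.98, SE 0.20, limma adjusted p = 6.7e-06). The trefoil peptide *TFF1* was at 0 and 1.15, 1.49 and 1.33 RPKM, and the intestinal keratin *KRT20* at 0 and 6.06, 17.6 and 15.5, at least 159-fold higher in CFPAC-1. *CTSE*, *CDH17* and *VSIG2* were under 1 RPKM on average in both lines and were not called. Basal-like genes did not take the opposite side as a group, with 7 higher and 9 lower of 22 tested (31.8% higher and 40.9% lower against backgrounds of 21.9% and 14.9%, median -0.63). *KRT6A*, a stress keratin with near-identical copies, was at 4.53, 4.17 and 5.52 RPKM against 0.0839, 0.168 and 0.143 (log2 fold change 4.39, SE 0.22, limma adjusted p = 1.5e-06), and *LY6D* and *S100A2* were higher too. *SERPINB3*, *SERPINB4*, *LEMD1* and *KRT15* were lower by over 5 on the log2 scale, and *KRT17*, the usual basal marker, was at 23.2, 26.9 and 28.8 RPKM against 24.2, 38 and 33.3 with overlapping samples. *SERPINB3* and *SERPINB4* are near copies whose reads may be shared.

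Foregut transcription factors were mostly higher in CFPAC-1. Of 27 tested, 15 were lower and 5 higher in SW1990 (55.6% lower and 18.5% higher against backgrounds of 14.9% and 21.9%, median -1.26). The liver and gut factor *HNF4A* was among the lower genes (log2 fold change -1.83, and -0.995 with a pseudocount of 1, under 2-fold). *SOX2*, a factor of the anterior foregut, was at 0.0775, 0.513 and 0.04501 RPKM against 33.98, 44.9 and 41.98 (log2 fold change -7.32, SE 0.49, limma adjusted p = 6.5e-06). *SOX9*, the duct progenitor factor, was well expressed in both, at 42.8, 42 and 46.8 RPKM against 129, 126 and 122, with all SW1990 samples lower (log2 fold change -1.52, SE 0.07, limma adjusted p = 1.1e-06). *PDX1* was at 1.32, 1.89 and 1.76 RPKM against 5.25, 5.14 and 4.33 (log2 fold change -1.52, SE 0.17, limma adjusted p = 1.0e-04), and *FOXA2* and *FOXA3* were lower, by log2 fold changes of -1.99 and -6.88. On the SW1990 side, *GATA5* was at 3.09, 3.24 and 3.9 RPKM and *GATA4* at 1.37, 1.45 and 0.962, with no read of either in CFPAC-1 (at least 60.1-fold and 29.2-fold). *NR5A2* was higher in SW1990 too (3.17).

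The *HOX* genes, which mark position along the body axis, differed by cluster. Of 33 tested, 14 were higher and 10 lower in SW1990 (42.4% higher and 30.3% lower against backgrounds of 21.9% and 14.9%). All 8 tested *HOXC* genes were higher, with log2 fold changes from 2.52 to 5.86. *HOXC11* was at 5.996, 5.44 and 5.75 RPKM and *HOXC8* at 2.701, 2.16 and 2.64 in SW1990, with no read of either in CFPAC-1. In the *HOXD* cluster 4 of 5 tested were lower, led by *HOXD4*, at 0 and 1.62, 1.91 and 1.39 RPKM. None was called higher, though the highest log2 fold change of that cluster was 1.47. The *HOXA* cluster had 4 higher and 3 lower of 11 and the *HOXB* cluster 2 higher and 3 lower of 9. These are few genes to set beside the backgrounds of 21.9% and 14.9%. Within *HOXA* neighbouring genes differed in direction, since *HOXA10* had 2 reads in each SW1990 sample and 8.64, 9.86 and 10.04 RPKM in CFPAC-1, while *HOXA11* and *HOXA13* were higher in SW1990 (log2 fold changes 2.79 and 2.15). *HOXB13* was at 2.52, 3.24 and 3.13 RPKM against 0, 0 and 0.03304.

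Duct transport, mucin and glycan genes leaned to CFPAC-1. Of 19 duct ion transport genes 10 were lower and 4 higher in SW1990 (52.6% lower and 21.1% higher against backgrounds of 14.9% and 21.9%), with the bicarbonate cotransporter *SLC4A4* at 0.0729, 0.166 and 0.0847 RPKM against 27.04, 25.9 and 29.7 (log2 fold change -7.08, SE 0.19, limma adjusted p = 1.3e-07) and carbonic anhydrase *CA2* on the other side (1.73). The chloride channel gene *CFTR* held at most 1 read in any of the 6 samples. Of 7 tested mucins 4 were lower and 1 higher (57.1% lower against 14.9%). *MUC4* was at 0.0492, 0.0614 and 0.0673 RPKM against 42.7, 38.1 and 67.2 (log2 fold change -8.23, SE 0.22, limma adjusted p = 1.2e-07), and *MUC16* (CA 125) at 0.5697, 1.03 and 1.003 against 2.62, 3.06 and 8.97, with CFPAC-1 replicate 3 highest (log2 fold change -2.18, limma adjusted p = 0.003, and 0.014 without SW1990 replicate 1). *MUC5B* and *MUC20* were lower as well (log2 fold changes -4.11 and -3.79), *MUC6* was higher (2.41, and 0.73 with a pseudocount of 1), and *MUC2* had means under 1 RPKM and was not called. For the enzymes that build Lewis antigens, to which the CA 19-9 epitope belongs, 11 were lower and 3 higher of 29 (37.9% lower and 10.3% higher against backgrounds of 14.9% and 21.9%). *B3GALT5*, which makes the type 1 chain, was at 2.16, 2.83 and 2.22 RPKM against 40.5, 40.9 and 47.7 (log2 fold change -4.11, SE 0.13, limma adjusted p = 2.0e-07), and *B3GNT3* and *B4GALT4* were lower too (log2 fold changes -4.70 and -4.75). *FUT3*, the Lewis fucosyltransferase, was low in both lines, at 1.13, 0.514 and 1.75 RPKM against 0.436, 0.547 and 0.387, and was not called (log2 fold change 1.01, limma adjusted p = 0.046), but was called without SW1990 replicate 2 (1.44, limma adjusted p = 0.0031).

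Proteins reported for the GCTM-5 complex were mixed. *LGALS3BP*, the galectin 3 binding protein, was at 1259, 1545 and 1569 RPKM in SW1990 negative and 528, 522 and 507 in CFPAC-1 negative cells (log2 fold change 1.48, SE 0.12, limma adjusted p = 1.7e-05). *FCGBP* was at 0.235, 0.535 and 0.883 RPKM against 0.621, 0.427 and 0.4897 and *C3* at 19.1, 35.2 and 32.8 against 27.3, 20.01 and 24.2, with overlapping samples for both, and *HPX* held at most 6 reads in a sample. *LGALS1* was higher and its relative *LGALS3* lower in SW1990 (log2 fold changes 3.24 and -2.10), and the secreted glycoprotein *LCN2* was at 99.7, 166 and 186 RPKM against 1318, 1268 and 1148 (log2 fold change -3.09, SE 0.22, limma adjusted p = 8.5e-06). Markers of progenitor and tumour-initiating cells also split. *CD24* was at 3.04, 3.19 and 2.96 RPKM against 608, 577 and 539 (log2 fold change -7.50, SE 0.07, limma adjusted p = 2.9e-09), and *PROM1* (CD133) and *ALDH1A1* were near 0 in SW1990 and at means of 40.9 and 29.98 RPKM in CFPAC-1. *CD44* was at 284, 312 and 281 RPKM against 126, 125 and 124 (log2 fold change 1.23, SE 0.07, limma adjusted p = 4.1e-06). *DCLK1* was at 6.51, 5.13 and 4.52 RPKM in SW1990 with at most 2 reads in a CFPAC-1 sample. Its log2 fold change on RPKM + 0.1, the scale of the other genes, was 5.73. The plain ratio of means, 2420.4-fold, rests on those few reads (exact 95% counting interval 629 to 18773). Of the 13 tested, 6 were lower and 4 higher (46.2% lower and 30.8% higher against backgrounds of 14.9% and 21.9%).

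Cytokine and chemokine genes were far higher in SW1990 negative cells. Of 34 tested, 24 were higher (70.6% against a background of 21.9%) and 5 lower, with a median log2 fold change of 2.34, or 2.19 with genes at 0 set to their bound. The interleukin 1 pair led. *IL1A* was at 59.6, 56.6 and 56.8 RPKM in SW1990 and 0.0877, 0.0937 and 0.0343 in CFPAC-1 (log2 fold change 8.41, SE 0.17, limma adjusted p = 3.6e-08). *IL1B* was at 87.5, 117 and 121 RPKM against 0.24, 0 and 0.06697 (log2 fold change 9.23, SE 0.40, limma adjusted p = 8.0e-07). CFPAC-1 held at most 7 reads of either gene in a sample. The natural antagonist of interleukin 1, *IL1RN*, was on the same side, at 13.1, 15.98 and 23.7 RPKM against 0.0972, 0.2597 and 0.142 (log2 fold change 6.05). The T cell chemokine *CCL5* was at 27.4, 40.3 and 37.3 RPKM against 0.0836, 0.0744 and 0.163 (log2 fold change 7.41, SE 0.22, limma adjusted p = 1.8e-07), and *CCL20* at 22.8, 27.3 and 26.7 against 0, 0.326 and 0.119 (log2 fold change 6.93, SE 0.46, limma adjusted p = 6.1e-06). Of the neutrophil chemokines, *CXCL1* was at 182, 229 and 189.8 RPKM against 11.4, 9.15 and 9.05 (log2 fold change 4.33, SE 0.12, limma adjusted p = 1.5e-07) and *CXCL5* at 202, 297 and 331 against 53.5, 28.02 and 28.2 (log2 fold change 2.95). *IL8*, listed under its older symbol, was at 71.9, 106 and 100.1 RPKM against 19.8, 25.9 and 17.8 (2.12). *IL6* was at 5.26, 6.35 and 5.68 RPKM against 1.04, 1.197 and 0.297 (log2 fold change 2.80, SE 0.42, limma adjusted p = 4.8e-04). *IL33*, an alarm cytokine of epithelium, had a mean of 8.86 RPKM in SW1990 and no read in CFPAC-1, at least 163-fold. The 5 that were lower in SW1990 were *CX3CL1* (log2 fold change -4.11), *CXCL16* (-3.24), the receptors *IL6R* (-2.03) and *OSMR* (-1.80), and *LIF* (-1.50).

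Promoters of this list were searched for NF-kB motifs. NF-kB is the transcription factor through which interleukin 1 is known to switch on these genes, and the form GGGANTTTCC (GGAAANTCCC on the other strand) was in 7 of the 25 members with an entry (28.0%), against 0.792% of all genes with an entry and 0.583% of all promoters. The 7 were *CXCL1*, *CXCL2*, *CXCL3*, *CXCL5*, *CXCL6*, *IL6* and *IL32*, of which the 5 *CXCL* genes are neighbouring copies on chromosome 4 and do not count as independent. Genes called higher in SW1990 held this form in 1.09% and genes called lower in 0.635%, both near the share of all genes. Its share in a list with known targets of NF-kB does not depend on the levels measured here. The promoters of *CXCL1*, on the plus strand at chr4:73869143-73869392, and of *CXCL6*, on the plus strand at chr4:73836428-73836677, are shown because these gene copies share the motif and differed by 4.33 and 1.87 on the log2 scale. Capitals mark the match.
CXCL1: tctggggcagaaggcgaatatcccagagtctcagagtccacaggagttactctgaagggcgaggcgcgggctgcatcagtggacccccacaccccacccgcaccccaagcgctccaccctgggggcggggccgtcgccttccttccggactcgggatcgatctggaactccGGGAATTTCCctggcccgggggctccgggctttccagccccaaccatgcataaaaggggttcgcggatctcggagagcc
CXCL6: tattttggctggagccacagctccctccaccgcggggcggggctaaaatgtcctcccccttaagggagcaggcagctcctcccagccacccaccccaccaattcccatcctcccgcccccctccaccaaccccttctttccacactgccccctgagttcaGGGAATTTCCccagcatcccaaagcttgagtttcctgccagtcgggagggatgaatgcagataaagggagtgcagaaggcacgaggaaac
The matches begin 79 and 90 bases before the start. The AP-1 form TGANTCA was in 5 of the 25 and in 6.70% of all genes with an entry.

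Interferon-stimulated genes were higher in SW1990 as a block. All 33 were tested, 27 were higher (81.8% against 21.9%), none was lower, and the median log2 fold change was 2.27. The RNA-binding effector *IFIT1* was at 296, 317 and 256 RPKM in SW1990 and 28.4, 41.9 and 40.3 in CFPAC-1 (log2 fold change 2.99, SE 0.16, limma adjusted p = 2.0e-06). The ubiquitin-like protein gene *ISG15* was at 947, 1125 and 951 RPKM against 173, 226 and 184 (log2 fold change 2.38, SE 0.13, limma adjusted p = 2.3e-06). The antiviral GTPase *MX1* was at 96.3, 102 and 96.2 RPKM against 20.2, 24.1 and 26.1 (log2 fold change 2.07, SE 0.10, limma adjusted p = 1.4e-06). In each, the lowest SW1990 sample was over 3 times the highest CFPAC-1 sample. *EPSTI1* had the widest difference, at 44.7, 47.5 and 43.6 RPKM against 1.63, 2.53 and 1.37 (log2 fold change 4.59, SE 0.20, limma adjusted p = 8.0e-07), followed by *RSAD2* (viperin), *CMPK2* and *HERC6* (log2 fold changes 3.87, 3.79 and 3.46). The sensor *IFIH1* had means of 27.9 and 5.66 RPKM (log2 fold change 2.29). The 6 not called were *IRF1* (-0.40), *HERC5* (-0.05), *IRF9* (0.30), *BST2* (0.83), *PARP9* (0.85) and *STAT2* (0.91). *IRF1*, *IRF9* and *STAT2*, which transmit the signal, were thus nearer to equal between lines than most of its targets.

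The interferon-stimulated response element is the site through which type I interferon is known to act on these genes. Its core TTTCNNTTTC (GAAANNGAAA on the other strand) was in 17 of the 25 listed genes with a promoter entry (68.0%), against 3.47% of all genes with an entry and 2.55% of all promoters. *HERC5*, *BST2* and *PARP9* carry it and were not called. Genes called higher in SW1990 held the element in 4.46% and genes called lower in 3.36%, both near the share of all genes. Its share in a list of known interferon targets does not depend on the levels measured here. Promoters of *IFIT1*, on the plus strand at chr10:89392373-89392622, *ISG15*, on the plus strand at chr1:1013247-1013496, and *EPSTI1*, on the minus strand at chr13:42992242-42992491, are shown, as the key members and the member with the widest difference. Capitals mark every match, and overlapping matches run together in *ISG15*.
IFIT1: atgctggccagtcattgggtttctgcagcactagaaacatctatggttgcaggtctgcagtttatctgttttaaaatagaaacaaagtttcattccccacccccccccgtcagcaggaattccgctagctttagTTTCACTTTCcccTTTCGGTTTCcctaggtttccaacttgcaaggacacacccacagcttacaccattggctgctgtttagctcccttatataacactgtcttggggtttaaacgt
ISG15: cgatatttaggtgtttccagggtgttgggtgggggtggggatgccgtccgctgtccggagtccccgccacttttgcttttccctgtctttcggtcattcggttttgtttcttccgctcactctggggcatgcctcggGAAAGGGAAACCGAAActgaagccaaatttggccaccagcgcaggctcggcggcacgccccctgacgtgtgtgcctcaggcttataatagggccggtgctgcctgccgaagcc
EPSTI1: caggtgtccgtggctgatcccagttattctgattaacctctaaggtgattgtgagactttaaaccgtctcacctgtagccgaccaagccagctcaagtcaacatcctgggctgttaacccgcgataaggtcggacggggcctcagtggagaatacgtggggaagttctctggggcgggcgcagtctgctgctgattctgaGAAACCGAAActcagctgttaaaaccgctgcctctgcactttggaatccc
The first bases of the 2 matches lie 116 and 103 bases before the start in *IFIT1* and 113 and 107 in *ISG15*, and the single match in *EPSTI1* begins 50 bases before it. The STAT form TTCNNNGAA was in 8 of the 25 and in 7.87% of all genes with an entry.

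**Figure D3:**
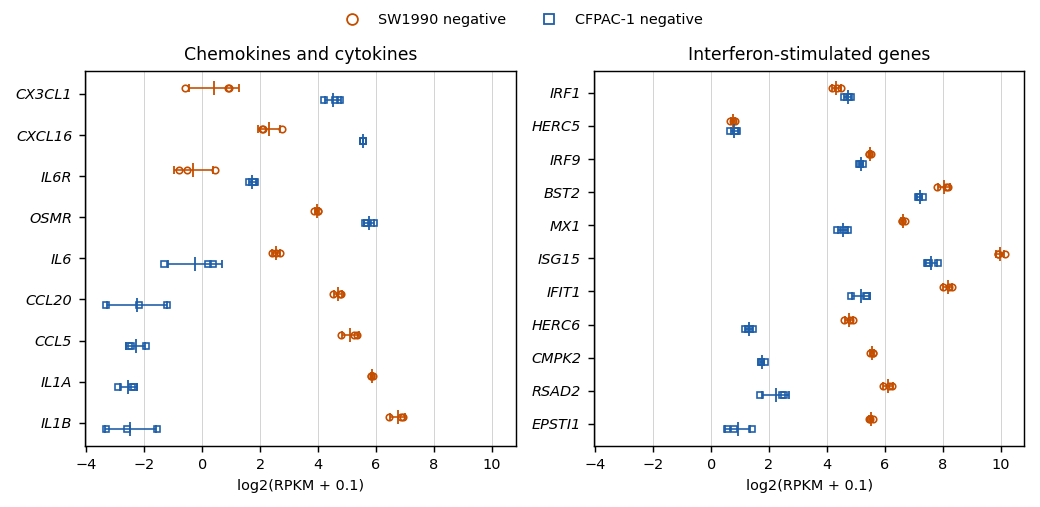
Levels of the named cytokine and interferon-stimulated genes in the 6 negative samples, as log2(RPKM + 0.1). Open symbols are samples, and the upright bar with whiskers is the mean ± SD of 3 samples of a line. The cytokine genes run from lower to higher in SW1990, while the interferon-stimulated genes run from about equal to higher.

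About as many antigen presentation genes were called as not. Of 28 tested, 11 were higher and 2 lower in SW1990 (39.3% higher and 7.14% lower against backgrounds of 21.9% and 14.9%), with a median of 0.24 against 0.20 for all genes. The peptide transporter genes *TAP1* and *TAP2* were higher, *TAP1* at 257, 282 and 272 RPKM against 46.04, 48.5 and 46.7 (log2 fold change 2.52, SE 0.07, limma adjusted p = 1.4e-07) and *TAP2* by a log2 fold change of 2.47. The class I light chain *B2M* was not called, at 1962, 2664 and 2544 RPKM against 2993, 3661 and 3399.8, with all SW1990 samples lower (log2 fold change -0.50, limma adjusted p = 0.035). Class II genes were expressed in both lines. *HLA-DRA* was at 200.3, 349 and 303 RPKM against 149, 134 and 132, just past the 2-fold limit (log2 fold change 1.00, SE 0.19, limma adjusted p = 0.0018), and under it, at 0.83 to 0.98, when SW1990 replicate 2 or 3 or CFPAC-1 replicate 2 or 3 was left out, at 0.81 with median centring and at 0.997 with a pseudocount of 1. The class II chaperone *CD74* was not called. *HLA-DRB1* and *HLA-DQA1* had log2 fold changes of 5.06 and 6.65, but these genes vary strongly between people and have near copies, so their counts are uncertain.

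Growth factor genes divided. Of 36 tested, 15 were lower and 10 higher in SW1990 (41.7% lower and 27.8% higher against backgrounds of 14.9% and 21.9%). The receptor *ERBB3* was at 2.94, 2.18 and 4.31 RPKM against 44.9, 49.5 and 54.2 (log2 fold change -3.99, SE 0.22, limma adjusted p = 2.4e-06) and its ligand *NRG1* at 5.98, 5.41 and 3.62 against 0.2902, 0.176 and 0.277 (log2 fold change 3.86, SE 0.25, limma adjusted p = 5.2e-06), in opposite directions. *EGFR* was at 21.4, 21.9 and 18.8 RPKM against 22.8, 25.2 and 27.98 and was not called, nor was *IGFBP3*. *TGFB2* was at 22.2, 29.99 and 28.01 RPKM against 269.9, 293 and 305 (log2 fold change -3.44, SE 0.12, limma adjusted p = 3.1e-07), and the TGF-beta receptor *TGFBR1* was at 8.76, 8.55 and 9.08 against 1.904, 1.55 and 1.35 (log2 fold change 2.40, SE 0.15, limma adjusted p = 4.1e-06). Ligand and receptor thus stood on opposite sides here too. *FGF19* and *IGFBP7* were lower and *VEGFC* higher in SW1990 (log2 fold changes -5.83, -5.62 and 4.52). In the Wnt and Notch list 13 were higher and 11 lower of 37 (35.1% higher and 29.7% lower against backgrounds of 21.9% and 14.9%). The ligands differed in identity, with *WNT7A* and *WNT7B* on the CFPAC-1 side (-6.11 and -3.74) and *WNT11* and *WNT9A* on the SW1990 side (5.82 and 4.14). The secreted antagonist *SFRP1* was at 0, 0.0192 and 0 RPKM against 22.9, 13.3 and 12.3, whereas the antagonist *DKK1* was at 337, 348 and 252 against 85.5, 82.1 and 86.4 (log2 fold change 1.87, SE 0.13, limma adjusted p = 6.7e-06). The Wnt target *AXIN2* and *RNF43*, both feedback inhibitors, went opposite ways, *AXIN2* with a log2 fold change of 1.54 (0.88 with a pseudocount of 1) and *RNF43* of -6.34.

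DNA replication genes were higher in SW1990 negative cells. Of 27 S phase genes 20 were higher (74.1% against 21.9%), none lower, and the median log2 fold change was 1.46. *PCNA*, the sliding clamp of replication, was at 107, 107 and 79.5 RPKM against 41.6, 44.1 and 38.4 (log2 fold change 1.23, SE 0.13, limma adjusted p = 6.1e-05). *E2F1*, the factor that drives entry into S phase, was at 54.5, 43.96 and 39.97 RPKM against 8.26, 7.503 and 7.91 (log2 fold change 2.52, SE 0.12, limma adjusted p = 1.2e-06), and cyclin E1, *CCNE1*, at 6.15, 3.93 and 4.94 against 1.06, 0.728 and 0.902 (log2 fold change 2.35, SE 0.21, limma adjusted p = 3.0e-05). Samples did not overlap, and SW1990 replicate 3 was the lowest of its line in *PCNA* and *E2F1*. The loading factor gene *CDC45* had the widest difference (2.55), and *UNG*, *SLBP*, *RFC2*, *CDT1*, *CHAF1B*, *MCM6* and *RRM1* were not called, but the last pair passed without SW1990 replicate 3 (1.05 and 1.01). Of 27 G2/M genes 7 were higher (25.9% against 21.9%) and none lower (median 0.60). The proliferation marker *MKI67* was at 59.3, 44.7 and 41.9 RPKM against 45.04, 48.02 and 55.6 and *CCNB1* at 28.02, 29.8 and 22.2 against 23.9, 28.4 and 26.2, with overlapping samples for both.

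NRF2 targets and detoxification genes had 9 higher and 7 lower of 26 (34.6% higher and 26.9% lower against backgrounds of 21.9% and 14.9%). *GSTT1*, a glutathione transferase whose gene is often deleted in people, was at 0 in SW1990 and 51.9, 46.7 and 43.2 RPKM in CFPAC-1, at least 338-fold. The aldehyde dehydrogenase *ALDH3A1* was at 32.5, 82.7 and 83.5 RPKM against 0.296, 0.162 and 0.133 (log2 fold change 7.72, SE 0.38, limma adjusted p = 1.4e-06), with SW1990 replicate 1 lowest. *CYP1A1* showed the same spread in SW1990, at 1.68, 4.74 and 4.79 RPKM. *HMOX1* was higher in SW1990 (log2 fold change 2.60) and *NQO1* lay just past the limit (1.03), and under it without SW1990 replicate 2 (0.935) or 3 (0.998) and with median centring (0.84). *AKR1B10* and *GPX2* were lower (-3.28 and -5.41). Among driver genes, *BRCA2* had a log2 fold change of 1.66. Of cancer-testis genes 2 were tested, *PRAME*, at 21.8, 21.1 and 21.5 RPKM against 1.31, 1.17 and 1.47, and *MAGEA6*, at 0 against 1.11, 0.831 and 0.797 (log2 fold change -3.33, and -0.93 with a pseudocount of 1), whose reads near-identical copies may share.

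The genes the study names for its sorted populations also differed between the negative cells. Those lists were chosen on these samples for another contrast. Of 24 genes named for antigen negative cells 10 were higher and 5 lower in SW1990 (41.7% higher and 20.8% lower against backgrounds of 21.9% and 14.9%), with *SPARC* and *MRC2* at one end and *MMP7* and *GPC6* at the other (log2 fold changes 7.50, 4.55, -10.07 and -4.20). Of 16 tested genes named for antigen positive cells 6 were higher and 3 lower (37.5% higher and 18.8% lower against backgrounds of 21.9% and 14.9%), from *KRT86* (-4.49) to *KRT6A* (4.39).

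Whether a line difference in the negative cells was also there in the positive cells was tested with an interaction term over all 12 samples. In the positive cells, 2346 genes (14.4% of the 16236 tested there) were higher and 2183 (13.4%) lower in SW1990, 27.9% in all. The interaction, the line difference in negative cells minus that in positive cells, was called for 1736 genes (10.7%), of which 1077 (6.63%) were above 0 and 659 (4.06%) below. With median centring these counts were 828 and 811. Of the genes called higher in SW1990 in negative cells 51.8% were called so in positive cells, and of the genes called lower 62.9%, as shares of 3513 and 2402 genes in both fits. Opposite calls were rare, 31 genes higher in SW1990 among negative and lower among positive cells and 30 the reverse.

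The epithelial difference was wider in the negative cells. In positive cells the 36 epithelial genes had a median log2 fold change of -0.32. Of them 3 were higher and 6 lower, against backgrounds of 14.4% and 13.4% in positive cells. The interaction was called below 0 for 31 of the 36 (86.1% against 4.06%). *CDH1* had means of 102 ± 7.69 RPKM in SW1990 positive and 98.3 ± 1.91 in CFPAC-1 positive cells (SD, n = 3), against 12.6 ± 3.51 and 79.03 ± 3.23 in the negative cells, and an interaction of -2.73 (SE 0.21, limma adjusted p = 7.8e-06). *EPCAM* had means of 176 ± 14.5 and 227 ± 36.2 RPKM in positive cells and an interaction of -3.12 (SE 0.22, limma adjusted p = 5.2e-06). *RAB25* had 82.3 ± 7.44 and 107 ± 11.1 RPKM there and an interaction of -4.55 (SE 0.31, limma adjusted p = 4.5e-06). All 3 genes were thus much closer between the lines in positive cells. Of the 7 mucins 5 had an interaction below 0 (71.4% against 4.06%). On the other side, *ZEB1* was at 2.63 ± 0.307 and 2.51 ± 0.0433 RPKM in positive cells, with an interaction of 2.17 (SE 0.17, limma adjusted p = 8.0e-06), and *VIM* at 245 ± 94.9 and 463 ± 96.9, with 1.99 (SE 0.34, limma adjusted p = 0.0011).

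S phase genes likewise differed less between the lines in positive cells. Their median log2 fold change in positive cells was 0.14, with none higher and 1 lower, against backgrounds of 14.4% and 13.4%. The interaction was called above 0 for 21 of 27 (77.8% against 6.63%). *PCNA* had means of 129 ± 9.39 and 158 ± 20.6 RPKM in SW1990 and CFPAC-1 positive cells and an interaction of 1.51 (SE 0.18, limma adjusted p = 1.3e-04), and *E2F1* of 63.9 ± 6.12 and 35.9 ± 8.72 and an interaction of 1.66 (SE 0.23, limma adjusted p = 3.4e-04). In the G2/M list no interaction was called. NRF2 targets had 11 interactions above 0 (42.3% against 6.63%) and 1 below (3.85% against 4.06%).

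The interferon difference was there in both populations. In positive cells 26 of the 33 interferon-stimulated genes were higher and none lower, against backgrounds of 14.4% and 13.4%, with a median of 2.00. The interaction was called for 2, *DDX58* and *OAS3*, both above 0 (6.06% against 6.63%). *IFIT1* had means of 313 and 41.3 RPKM in positive cells, a line difference of 2.97 on the log2 scale, and of 2.99 in negative cells. The cytokine list was between these cases. In positive cells 13 of 34 were higher and 6 lower (median 0.76), against the same backgrounds. The interaction was above 0 for 11 (32.4% against 6.63%) and below 0 for 3 (8.82% against 4.06%). *IL1B*, *CCL5* and *CCL20* kept line differences of 7.24, 7.34 and 7.62 in positive cells, whereas *CXCL1* had means of 35.6 ± 11.6 and 55.02 ± 20.97 RPKM there and an interaction of 4.94 (SE 0.38, limma adjusted p = 7.8e-06), and *IL8* of 17.8 ± 7.44 and 77.5 ± 14.99 and an interaction of 4.30 (SE 0.37, limma adjusted p = 1.3e-05). The *HOXC* genes stayed higher in SW1990 positive cells, from 2.21 to 4.84 on the log2 scale.

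**Figure D4:**
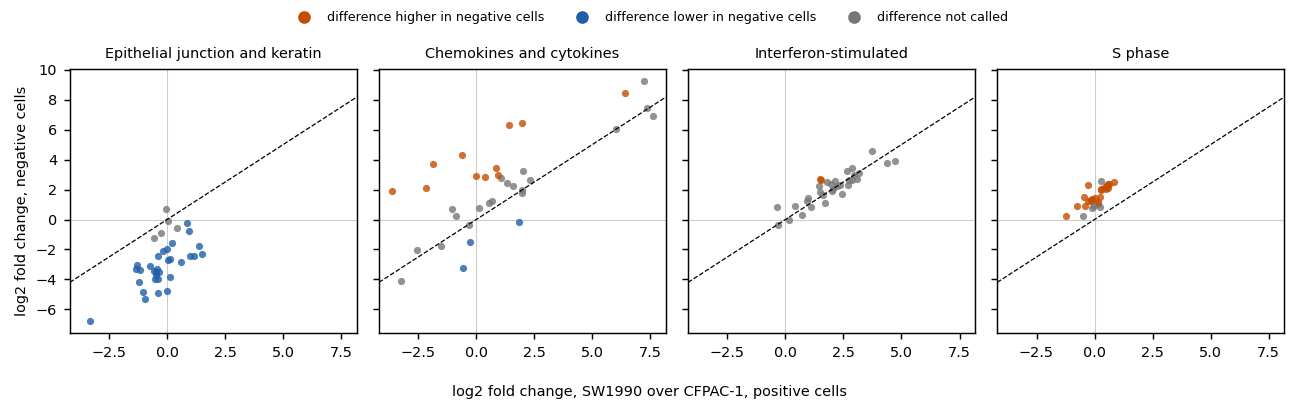
Line difference (log2 fold change, SW1990 over CFPAC-1) of each member of 4 lists in negative cells (y axis) against positive cells (x axis), coloured by whether the interaction was called; the dashed line marks equal differences. Epithelial genes lie below the line near 0 on the x axis, S phase genes above it, and interferon-stimulated genes along it.

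Differences were spread unevenly over the chromosomes. For the 84.4% of tested genes with a GRCh37 position, chromosome 13 had the highest median log2 fold change, 1.06, with 52.1% of its 242 genes called higher in SW1990. Chromosomes 8 and 19 followed, with medians of 0.66 and 0.63 and 36.5% and 33.1% called higher. Chromosomes 4 and 15 had the lowest medians, both -0.46, and 31.5% of the 504 genes of chromosome 4 were called lower. In positive cells the medians of chromosomes 13 and 4 were 0.80 and -0.65. Runs of 20 neighbouring genes were then ranked by their median, as a description of runs chosen for their values. The highest was on chromosome 12, from *HOXC13* to *ITGA7*, with a median of 2.03 and 12 genes called higher, and the next on chromosome X, from *TREX2* to *IRAK1*, with 15 higher and none lower. A run at the end of chromosome 13, from *CARS2* to *GAS6*, had 16 higher and none lower. The lowest was among the protocadherin genes of chromosome 5, from *PCDHA10* to *PCDHB15*, neighbouring members of a gene family that cannot be counted as independent. On chromosome 18 the run from *TAF4B* to *INO80C* had 16 genes lower, none higher and a median of -1.81. Copy number was not measured, and its part in these differences was not tested.

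**Figure D5:**
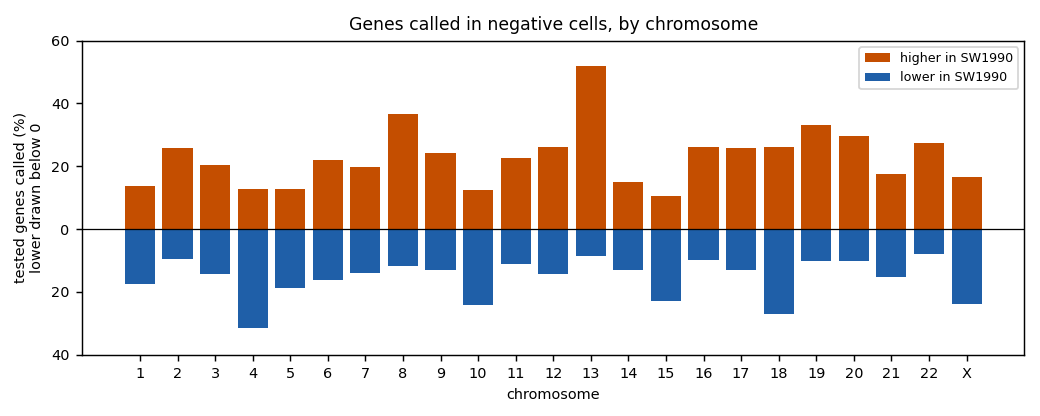
Share of tested genes on each chromosome called higher (above 0) or lower (below 0) in SW1990 negative than in CFPAC-1 negative cells, in percent. Chromosome 13 has the largest share called higher, 52.1%, and chromosome 4 the largest called lower, 31.5%.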

How the data were processed

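Poly(A)+ RNA of sorted cells was sequenced on a HiSeq instrument. Per the labels a strand-specific kit was used, whereas the methods name a TruSeq kit. The authors aligned reads to hg19 (GRCh37), counted them per gene with QuasR and deposited RPKM, scaled by library size and gene length. The annotation, use of strand and treatment of reads matching several genes are not given in the sources used here. Overlapping, antisense and near-identical genes are therefore uncertain.

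Whole reads were recovered from the lowest RPKM steps and matched each library total to over 99.9%. They set the bounds of genes at 0 (3 reads per library) and exact 95% counting intervals of genes with 1 to 3 reads, which cover counting error only. Genes with a mean of at least 0.1 RPKM were fitted as log2(RPKM + 0.1) with limma 3.58.1 (R 4.3.3, intensity trend), with Benjamini-Hochberg adjustment over all tested genes. Fold changes on this scale understate the change of low genes. A gene was called at over 2-fold and adjusted p under 0.01. The interaction and the positive cells were fitted over all 12 samples. On simulated data of the same comparison 91.0% of 100 genes changed 4-fold and 91.8% of 98 changed 3-fold were called, and 0.0625% of unchanged genes. The simulated samples were independent, with a spread set in advance, few genes changed and no other difference between the lines. Those shares therefore cannot speak for error among the calls made here, where 36.9% of genes were called.

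Members and gene lists were chosen with earlier results of these data known. Named were the 10 called genes at each end (mean of at least 1 RPKM, lines not overlapping), key members and the 4 highest and 4 lowest of each list, the 5 genes at each end of the interaction and the 5 most abundant genes of each line. Another 35 genes named in the text fall outside this rule and were chosen after their values were seen. Gene positions came from GENCODE 44 on GRCh37. Promoters came from RefSeq on GRCh38.p14. Genes of chromosome Y and XIST were left out of the named genes. Alternatives covered pseudocount, filter, scaling, thresholds, a replicate block, voom on recovered reads and leaving out each sample. Some items within the named-gene rule are not reported here.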

Additional observations from a re-analysis of the deposited data

Results flagged for a closer look

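The results below were picked out because the difference between the lines was not the same in antigen negative and antigen positive cells, by the interaction term of limma over all 12 samples. All values are log2 line differences in negative cells minus those in positive cells. The interaction was above 0 for 1077 genes (6.63% of those tested) and below 0 for 659 (4.06%), shares to be set beside the list counts below.

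The 5 genes at each end of the interaction were as follows. *FOXJ1*, a factor of ciliated cells, had an interaction of -6.67, *GABRP* of -6.57, *LY6G6C* of -5.26, the secreted protein gene *WFDC2* of -5.03 and the protease gene *KLK8* of -4.90. On the other side, the proteoglycan gene *SDC2* had 6.55, *CXCR4*, the receptor of CXCL12, 5.61, *CXCL6* 5.50 and *ECSCR* 5.29. *MAGEA3*, which was under the filter in the negative cells alone and has near-identical copies, had 5.98. *FOXJ1* had means of 0.998 ± 0.482 and 12.9 ± 3.64 RPKM in SW1990 and CFPAC-1 negative cells and of 13.5 ± 8.22 and 1.31 ± 0.504 in positive cells (SD, n = 3). *CXCR4* had 3.94 ± 0.738 and 0.239 ± 0.181 RPKM in negative and 0.275 ± 0.0924 and 1.26 ± 0.173 in positive cells. *LY6G6C* was low, with 5 to 10 reads in each SW1990 negative sample, and its interaction had an SE of 1.14 (limma adjusted p = 0.0052). Its call in the negative cells was lost when any SW1990 negative sample or CFPAC-1 negative replicate 2 or 3 was left out. The limma adjusted p was then 0.0103 to 0.0188. In the fit on all 12 samples that call was also lost (limma adjusted p = 0.042).

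Among the lists, the interaction was below 0 for 31 epithelial genes (86.1%), with *CDH1* at -2.73, *EPCAM* at -3.12 and *RAB25* at -4.55, and for 5 mucins (71.4%). It was above 0 for 21 S phase genes (77.8%), with *PCNA* at 1.51 and *E2F1* at 1.66, and in the mesenchymal list for *VIM* and *ZEB1* among others, *VIM* at 1.99 and *ZEB1* at 2.17. In the cytokine list it was above 0 for 11 genes (32.4%), with *CXCL1* at 4.94 and *IL8* at 4.30, and below 0 for 3 (8.82%). In the NRF2 list it was above 0 for 11 genes (42.3%) and below 0 for 1 (3.85%). CFPAC-1 positive replicate 3, which enters the positive side, was the shallowest of the 12 samples, and without it the interaction was above 0 for 1182 genes and below 0 for 740. It also lay apart from replicates 1 and 2 on principal component 4 of the 12 samples (-54.9 against 25.3 and 25.9). In CFPAC-1 positive replicates 1, 2 and 3, *SDC2* was at 11.4, 10.6 and 3.08 RPKM and *MAGEA3* at 25.6, 22.3 and 2.33.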

How the results depend on the processing

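Over 20 alternatives for the negative cells and 25 for the interaction, the counts over all genes stayed within 1.5 times the values given, except that without a fold threshold 5894 genes were higher and 3976 lower in SW1990. A pseudocount of 1 gave 2529 and 1713, and voom on recovered reads gave 3623 and 2482. Leaving out 1 sample gave 3311 to 3553 higher and 2269 to 2441 lower, and for the interaction 834 to 1182 above 0 and 528 to 740 below. The balance of calls moved with scaling, and quantile normalization gave 2990 higher and 2806 lower, and 857 and 842 for the interaction. Same-numbered samples of the lines did not deviate together, with correlations of -0.0478 to -0.0138 against -0.0065 to 0.0366 for other numbers. Between the negative and positive cells of a line they were 0.0163 to 0.185 for same numbers in SW1990 and -0.0593 to 0.0013 in CFPAC-1, so the numbers were not used as a pairing in either direction. With the replicate number as a block 3493 genes were higher and 2360 lower, and the interaction counts were 914 and 607. With a block shared by the negative and positive cells of a line, chosen after seeing the data, the interaction counts were 927 and 600. Of 1238 list counts recomputed, 42 moved by over 1.5 times, most of them with a pseudocount of 1, a filter at 1 RPKM or no fold threshold.

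Of 4553 values of named genes, 14 changed sign, all in genes that were not called. *CCNB1* was at -0.17 with median centring, -0.10 with quantile normalization and -0.064 to 0.15 on leaving out samples. *MEX3C* was at -0.10 and -0.057 under those scalings. *FCGBP* was at 0.017 with a pseudocount of 1, 0.10 as the ratio of means and -0.40 to 0.38 on leaving out samples, where *MKI67* was at -0.19 to 0.061. A call was lost in 30 values and gained in 28, most of the latter without a fold threshold. A pseudocount of 1 ended the calls of 8 genes and median centring those of *VIM*, *HLA-DRA*, *NQO1* and *CXCL2* (0.92). The cause was not tested. Depth limits genes under about 3 reads, where absence cannot be told from a low level.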
